A study of Mus musculus with 23 samples.

Results

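Fc receptors let myeloid cells react to antibody. The genes described here are the 4 mouse Fc gamma receptors Fcgr1, Fcgr2b, Fcgr3 and Fcgr4, their signalling chain Fcer1g, and the tyrosine kinases Fgr, Lyn and Syk that relay their signal. They were chosen by name, with earlier results of these data known, and matched to Ensembl identifiers. All 8 were found among the 54232 gene identifiers that each count file lists. Fgr and Lyn are Src-family kinases and Syk is not. The genes were counted in RNA-seq of poly(A) RNA from the hippocampus of C57BL/6 mice, in 23 libraries of 7 groups.

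At 9 months of age there were 4 libraries of PS19;Lsd1Δ/+ mice, which carry the PS19 transgene and are LSD1 +/-, 4 of PS19 mice (PS19 tg, LSD1 +/+), 2 of Lsd1Δ/+ mice (LSD1 +/- without the transgene) and 4 of wild-type mice (WT). The PS19 transgene is a mutant human tau driven by the mouse prion promoter, so it is not confined to the hippocampus, and PS19 mice are widely used as a model of tauopathy. At 11 months every mouse had received a neuron-specific AAV in the hippocampus: 3 libraries were of PS19 mice given LSD1 virus (PS19_rescue), 3 of PS19 mice given HA control virus (PS19_HA) and 3 of wild-type mice given HA control virus (WT_HA). All groups of the later cohort therefore share the injection. The comparisons ask how the tau transgene, a lower dose of Lsd1 and added LSD1 go with the levels of these genes.

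Fc gamma receptors bind the constant region of IgG. Mouse Fcgr1, Fcgr3 and Fcgr4 are activating receptors, which need the chain encoded by Fcer1g to reach the cell surface and to signal. Fcgr2b carries an inhibitory motif of its own and recruits the lipid phosphatase encoded by Inpp5d. When IgG complexes cluster the activating receptors, Src-family kinases phosphorylate the chain, and Syk docks there and starts the signals for phagocytosis and the oxidative burst. Lyn also phosphorylates the inhibitory motif of Fcgr2b, so it serves both arms. In brain these genes are used mainly by microglia and by macrophages of the brain's borders.

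Fcgr2b, Fcgr4, Fcgr3 and Fcer1g lie close together on mouse chromosome 1 (GRCm38): Fcgr2b (ENSMUSG00000026656) from 170958617 to 170976547, Fcgr4 (ENSMUSG00000059089) from 171018920 to 171029761, Fcgr3 (ENSMUSG00000059498) from 171051174 to 171064935 and Fcer1g (ENSMUSG00000058715) from 171229572 to 171234365. Fcgr4 is on the plus strand and the other three are on the minus strand. Fcgr1 (ENSMUSG00000015947) is on chromosome 3 from 96282909 to 96293969, Fgr (ENSMUSG00000028874) on chromosome 4 from 132974095 to 133001910, Lyn (ENSMUSG00000042228) on chromosome 4 from 3678115 to 3813122 and Syk (ENSMUSG00000021457) on chromosome 13 from 52583173 to 52648792. All 8 are annotated as protein-coding, and the values are counts over their exons.

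The promoters of the 4 receptors are shown because all 4 had higher fitted levels in tau-transgenic hippocampus, and Fcgr2b opposes the other three in function. Each sequence is the RefSeq window of GRCm38.p6 from 250 bases before to 50 bases after an annotated gene start, read 5′ to 3′ on the gene's strand. Fcgr1 is chr3:96293920-96294219 (minus), Fcgr3 the first of its windows at chr1:171059354-171059653 (minus), Fcgr4 chr1:171018676-171018975 (plus) and Fcgr2b chr1:170976022-170976321 (minus). Capitals mark matches to the core of the myeloid factor PU.1 (GAGGAA on either strand, so TTCCTC where it lies on the other strand) and, in Fcgr1, to the interferon gamma-activated site (TTCNNNGAA, which reads the same on both strands).
Fcgr1: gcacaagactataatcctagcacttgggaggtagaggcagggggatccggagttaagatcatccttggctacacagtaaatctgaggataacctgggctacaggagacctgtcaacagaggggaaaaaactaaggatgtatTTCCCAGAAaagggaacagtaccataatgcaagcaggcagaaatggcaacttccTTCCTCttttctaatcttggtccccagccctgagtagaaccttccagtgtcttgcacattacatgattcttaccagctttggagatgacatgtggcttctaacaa
Fcgr3: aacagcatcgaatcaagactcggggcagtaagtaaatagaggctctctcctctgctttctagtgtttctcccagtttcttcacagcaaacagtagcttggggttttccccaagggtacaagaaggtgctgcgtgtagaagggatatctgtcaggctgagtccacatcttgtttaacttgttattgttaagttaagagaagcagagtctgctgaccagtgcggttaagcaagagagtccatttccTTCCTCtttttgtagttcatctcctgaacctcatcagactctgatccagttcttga
Fcgr4: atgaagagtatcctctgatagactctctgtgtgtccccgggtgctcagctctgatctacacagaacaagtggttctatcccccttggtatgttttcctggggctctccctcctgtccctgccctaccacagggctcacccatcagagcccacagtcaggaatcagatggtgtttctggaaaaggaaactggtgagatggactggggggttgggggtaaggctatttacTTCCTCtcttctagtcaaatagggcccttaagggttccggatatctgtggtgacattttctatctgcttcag
Fcgr2b: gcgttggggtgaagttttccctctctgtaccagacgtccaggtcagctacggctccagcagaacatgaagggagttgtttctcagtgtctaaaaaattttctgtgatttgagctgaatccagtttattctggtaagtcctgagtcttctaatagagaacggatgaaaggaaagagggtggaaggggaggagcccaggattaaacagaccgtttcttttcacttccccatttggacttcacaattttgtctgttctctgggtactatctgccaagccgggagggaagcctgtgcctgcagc

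Of the 8 genes, 7 had a RefSeq window, with 9 windows in all, and Lyn had none. A PU.1 core was found in the windows of 5 genes: at base 196 of the window of Fcgr1, 245 of the first and 236 of the second window of Fcgr3, 229 of Fcgr4, 282 of Fgr and 242 of the second window of Syk. The windows of Fcgr2b and Fcer1g held none. Of all 32851 promoter windows, 28.3% held a PU.1 core and 8.3% a gamma-activated site, so a single match is common. The gamma-activated site at base 142 of the Fcgr1 window was the only one among these genes, and it overlapped no PU.1 match. These matches are letters in a window and were not tested for binding.

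Libraries held 15451494 to 24644977 counted reads. Values are CPM, read counts over library size with the scaling of TMM, and errors are the SD over libraries. Mitochondrial genes took over 10% of the counts in 3 of the 23 libraries: PS19 replicate 3 with 16.1%, WT replicate 3 with 33.9% and, at 11 months, WT_HA replicate 2 with 16.2%. The other 20 libraries had 2.86% to 6.04%. Kdm1a, which encodes LSD1, averaged 43.1 ± 10.1 CPM in PS19;Lsd1Δ/+ (n = 4) and 35.9 ± 0.749 in Lsd1Δ/+ (n = 2), against 53.8 ± 5.63 in PS19 and 55.8 ± 4.84 in WT (n = 4 each), but the library labelled PS19;Lsd1Δ/+ replicate 3 read 56.5 CPM, within the WT range. In PS19_rescue it spread from 1727 to 10810 CPM, against means of 61.8 in PS19_HA and 63.7 in WT_HA. Prnp, whose promoter drives the transgene, averaged 1586 CPM in PS19;Lsd1Δ/+ and 1647 in PS19, against 869.3 in Lsd1Δ/+ and 776.9 in WT. Xist was above 500 CPM in 2 of the 3 libraries of each 11-month group and at most 4.40 CPM in every 9-month library. The 11-month libraries of low Xist were PS19_rescue replicate 1 (62.4 CPM), PS19_HA replicate 3 (5.02) and WT_HA replicate 3 (40.8). Whether each library stands for its own animal is not said in the labels, so all p-values below speak of the spread between these libraries, which could be technical.

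Divided by exon length, Fcer1g and Fcgr3 were the most abundant of the 8 transcripts in both PS19 and WT hippocampus. In PS19 the mean levels in CPM per kb of exon were 13.7 for Fcer1g, 10.9 for Fcgr3, 3.69 for Lyn, 3.41 for Fcgr1, 2.06 for Fcgr2b, 0.864 for Fcgr4, 0.857 for Syk and 0.641 for Fgr. In WT they were 4.61 for Fcer1g, 3.88 for Fcgr3, 1.603 for Lyn, 1.12 for Fcgr1, 0.502 for Fcgr2b, 0.454 for Syk, 0.0370 for Fcgr4 and 0.0137 for Fgr. The order was the same except that Syk stood above Fcgr4 in WT. Fcgr4 and Fgr were close to absent from WT hippocampus, and the other six were present in every library.

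**Figure D1:**
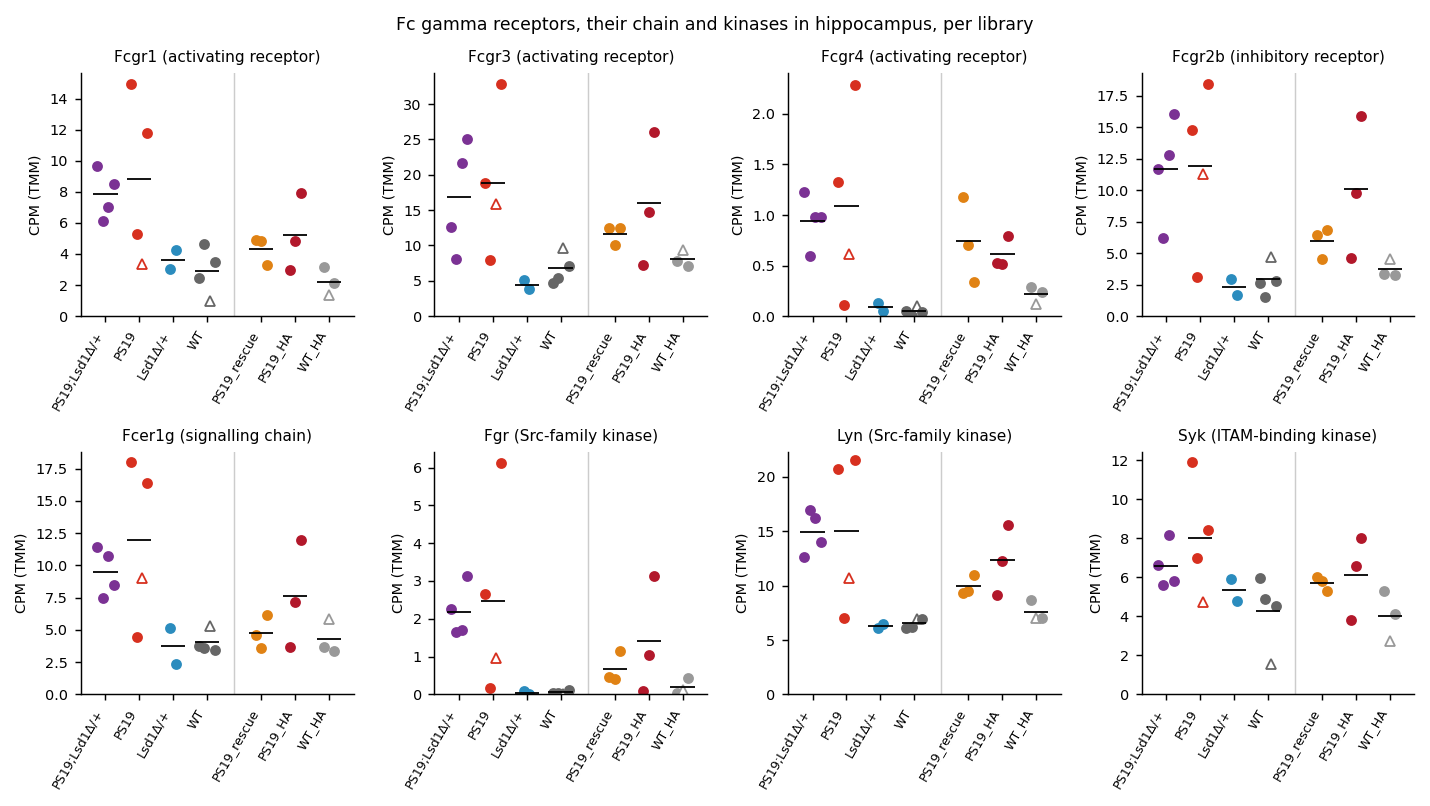
Level of each of the 8 genes in CPM (vertical axes, linear, from 0) in every library of the 7 groups, with a bar at the group mean. Open triangles are the 3 libraries with over 10% mitochondrial counts. PS19 and PS19;Lsd1Δ/+ libraries lie mostly above WT, with PS19 replicate 2 near it, as in Fcgr2b at 3.13 CPM.

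All 8 genes had higher fitted levels in PS19 than in WT hippocampus at 9 months. Their log2 differences ran from 0.90 for Syk to 5.22 for Fgr with a median of 1.58, against a median of -0.02 over the 20122 genes tested, of which 46.5% were above 0. The quasi-likelihood test of edgeR called none of the 8 after Benjamini-Hochberg adjustment over all genes (adjusted p = 0.126 to 0.984), in a comparison where it called 0.00497% of genes, which is 1 gene. Before adjustment all 8 had p under 0.05, as did 3.45% of all genes in that direction. DESeq2, run as the alternative tool, called 5 of the 8 as higher in PS19 (Fcgr2b, Fcgr4, Fcer1g, Fgr and Lyn), against 0.929% of all genes. Because the 8 were chosen with earlier results of these data known, the shares over all genes here and below are a description. They are not a test of the set.

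Fcgr4, an activating receptor that binds IgG2 subclasses and is typical of inflammatory myeloid cells, was near absent from WT hippocampus. It read 1.33, 0.106, 0.618 and 2.29 CPM in the 4 PS19 libraries, against 0.0471, 0, 0.0979 and 0.0409 CPM in WT. The lowest PS19 library, replicate 2, stood just above the highest WT library, so the groups did not overlap. These values rest on 93 counts in PS19 and 3 counts in WT, a pooled ratio of 31.3 with an exact 95% interval of 10.4 to 155 that covers counting error only. The fitted log2 difference was 4.61 (SE 0.90), called by DESeq2 (adjusted p = 0.00232) and not by edgeR (0.126).

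Fcgr3, the low-affinity activating receptor found on most myeloid cells, had 18.9, 7.92, 15.9 and 32.9 CPM in PS19, against 4.66, 5.46, 9.69 and 7.16 CPM in WT. PS19 replicate 2 lay within the WT range, so the groups overlapped, and the log2 difference of 1.49 (SE 0.44) was called by neither edgeR (adjusted p = 0.428) nor DESeq2 (0.0893). Fcgr1, the high-affinity receptor that binds single IgG molecules, had 14.9, 5.26, 3.37 and 11.8 CPM in PS19, against 2.45, 4.66, 0.979 and 3.48 CPM in WT. Its groups overlapped as well: PS19 replicate 3 fell inside the WT range, and the 3.02-fold difference (log2 1.59, SE 0.49) had adjusted p = 0.477 by edgeR and 0.0945 by DESeq2. The 2 lowest Fcgr1 values of their groups came from the libraries of high mitochondrial share.

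Fcgr2b, the inhibitory receptor, stood 4.14-fold higher in PS19. It read 14.8, 3.13, 11.3 and 18.4 CPM in PS19, against 2.59, 1.52, 4.70 and 2.82 CPM in WT, with overlap through PS19 replicate 2 alone. The log2 difference of 2.05 (SE 0.51, 95% interval 0.96 to 3.14) was called by DESeq2 (adjusted p = 0.00937) and not by edgeR (0.233). Fcgr2b and Fcgr3 share 166 stretches of 50 bases, which is 2.92% of those of Fcgr2b and 9.58% of those of Fcgr3. The rule for reads that align to more than 1 place is not given in the sources used here, so how reads from these stretches were counted is uncertain.

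Fcer1g, the chain that the activating receptors share, read 18.04, 4.46, 9.00 and 16.4 CPM in PS19, against 3.77, 3.60, 5.28 and 3.48 CPM in WT. Only PS19 replicate 2 reached into the WT range, and the log2 difference of 1.58 (SE 0.40) was called by DESeq2 (adjusted p = 0.0211) and not by edgeR (0.249). Fcer1g thus differed from WT by about the same factor as Fcgr1 and Fcgr3, with folds of 2.98, 3.02 and 2.81.

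Among the kinases, Fgr differed most and Syk least. Fgr, a Src-family kinase of mature myeloid cells, read 2.66, 0.159, 0.962 and 6.12 CPM in PS19, against 0.0471, 0.0423, 0 and 0.123 CPM in WT, without overlap. It rests on 216 counts in PS19 and 5 in WT, a pooled ratio of 43.7 (exact 95% interval 18.4 to 136, counting error only), and its log2 difference of 5.22 (SE 1.01) had adjusted p = 0.126 by edgeR and 0.000139 by DESeq2. The PS19 libraries spread over a wide range, with replicate 4 the highest and replicate 2 the lowest.

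Lyn, the Src-family kinase that phosphorylates both receptor types, read 20.7, 7.01, 10.7 and 21.6 CPM in PS19, against 6.08, 6.18, 6.95 and 6.91 CPM in WT. The 4 WT libraries were close to each other and all lay below the lowest PS19 library, by a narrow margin for PS19 replicate 2. Its log2 difference of 1.20 (SE 0.31) was called by DESeq2 (adjusted p = 0.0296) and not by edgeR (0.260). Syk read 11.9, 7.01, 4.74 and 8.41 CPM in PS19, against 5.98, 4.91, 1.57 and 4.54 CPM in WT, with overlap. Its log2 difference of 0.90 (SE 0.37) passed in neither tool (adjusted p = 0.984 by edgeR and 0.567 by DESeq2). In all, 3 of the 8 genes (Fcgr4, Fgr and Lyn) had groups that did not overlap, against 1% of all genes in that direction. For Fcgr4 and Fgr this rests on a few reads. Their lowest PS19 values, 0.106 and 0.159 CPM, stood little above their highest WT values, 0.0979 and 0.123 CPM, with 3 and 5 counts over the WT libraries.

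The number of genes called depended on single libraries and on the fit. Without PS19 replicate 2, edgeR called 5 of the 8 (Fcgr2b, Fcgr4, Fcer1g, Fgr and Lyn, adjusted p = 0.00662 to 0.0219) and DESeq2 called 7, all but Syk. That library was the lowest of PS19 in each of those 5 genes, so leaving it out raised their differences. In every fit that left out another library, edgeR called 0 of the 8. The calls over all genes moved with PS19 replicate 2 as well: edgeR called 146 genes without it (0.725% of those tested, against 1 gene with all libraries) and DESeq2 338 (1.68%, against 191). Leaving out any 1 of the 8 libraries, DESeq2 called between 2 and 7 of the genes. It called Fcgr4 and Fgr in 8 of 8 such fits, Fcgr1, Fcgr2b and Fcer1g in 3, Fcgr3 and Lyn in 2 and Syk in 0. Fcgr4 and Fgr, with 3 and 5 counts in WT, passed the filter on low counts only through transgenic libraries, where they are high. The count of 5 was 2 without WT replicate 1, WT replicate 4, PS19 replicate 1 or PS19 replicate 4, and 3 without WT replicate 2. With the replicate number as a block DESeq2 called 7 (Fcgr1 at adjusted p = 0.0144 and Fcgr3 at 0.000459 beside the 5), against 1.81% of all genes, and edgeR called 0 with a lowest adjusted p of 0.0646, against 0.0248% of all genes. Without the libraries of high mitochondrial share DESeq2 also called 7, in a fit that called 256 genes in all (1.29%). Fitted to the PS19 and WT libraries alone, without the other 9-month groups, it called 0 of the 6 members tested there (64 of all genes, 0.354%), and Fcgr4 and Fgr did not pass the filter on low counts in that fit. Replicates 1 and 2 and replicates 3 and 4 gave like values when fitted apart: log2 2.18 and 1.99 for Fcgr2b, 4.77 and 4.48 for Fcgr4, 4.89 and 5.33 for Fgr, 1.23 and 1.21 for Lyn.

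All 8 genes also had higher fitted levels in PS19;Lsd1Δ/+ than in WT hippocampus, with a smaller SD than in PS19. Log2 differences ran from 0.61 for Syk to 5.03 for Fgr with a median of 1.37, against a median of 0.00 over all genes, of which 50.1% were above 0. The edgeR test called none (adjusted p = 0.286 to 0.829), as against 0.00497% of all genes, and 7 of the 8 had unadjusted p under 0.05, as against 4.28% of all genes in that direction. DESeq2 called 4 as higher: Fgr (adjusted p = 0.000492), Fcgr4 (0.00786), Fcgr2b (0.0191) and Lyn (0.0460), against 0.527% of all genes. Both wild-type comparisons of the 9-month cohort use the same 4 WT libraries.

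Fcgr4 read 1.22, 0.591, 0.980 and 0.981 CPM in PS19;Lsd1Δ/+ and Fgr 2.26, 1.66, 1.72 and 3.13 CPM, each far above every WT library (pooled ratios 24.2 on 74 and 3 counts and 33.8 on 172 and 5 counts). Fcgr2b read 11.7, 6.16, 12.8 and 16.1 CPM, Fcgr1 9.70, 6.13, 7.04 and 8.53, Fcer1g 11.4, 7.46, 10.7 and 8.46, and Lyn 12.7, 17.0, 16.2 and 14.0 CPM. These 6 genes had groups that did not overlap with WT, against 3.46% of all genes in that direction. Fcgr3 read 12.6, 8.12, 21.7 and 25.1 CPM and Syk 6.64, 5.61, 8.15 and 5.83 CPM, and both overlapped the WT values given above. Leaving out 1 library, DESeq2 called 1 to 3 of the 8: 1 without WT replicate 2 or WT replicate 4, and 2 without WT replicate 1 or without replicate 1, 3 or 4 of PS19;Lsd1Δ/+. It called Fgr in 8 of 8 of these fits, Fcgr4 in 6, Fcgr2b in 2 and Lyn in 0, so the call of Lyn held in none of them. Here too Fgr and Fcgr4 passed the filter on low counts only through transgenic libraries. Without the library labelled PS19;Lsd1Δ/+ replicate 3, whose Kdm1a was at the WT level, the log2 differences were 4.38 for Fcgr4, 5.13 for Fgr, 1.98 for Fcgr2b and 1.17 for Lyn (adjusted p of 0.0252, 0.00204, 0.0904 and 0.158 by DESeq2). When the replicate number was a block, DESeq2 called 7, all but Syk, against 4.33% of all genes.

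None of the 8 genes was called between PS19;Lsd1Δ/+ and PS19 hippocampus. PS19;Lsd1Δ/+ differed from PS19 by log2 values between -0.33 (Fcer1g) and -0.00 (Lyn), with SEs of 0.30 to 0.74, where 47.4% of all genes were above 0. The groups overlapped for all 8, while 0.393% of all genes lay higher and 0.239% lower without overlap. Neither edgeR nor DESeq2 called a member (adjusted p of 1.00 throughout), none had an unadjusted p under 0.05, and over all genes edgeR called 0% and DESeq2 0.00497%, with 1.25% at an unadjusted p under 0.05. The 95% intervals of the difference were -0.66 to 0.65 for Lyn, -1.07 to 1.00 for Fcgr2b, and -1.78 to 1.397 for Fgr. Changes within these intervals are not excluded. The intervals are not limits of detection: in PS19 against WT, Lyn at 1.20 was not called by edgeR (adjusted p = 0.260). The library labelled PS19;Lsd1Δ/+ replicate 3 had Kdm1a at the WT level. Without it the log2 differences lay between -0.42 (Syk, SE 0.42) and -0.05 (Lyn, SE 0.34), with Fcer1g at -0.39 and Fcgr3 at -0.31, and again no member was called by edgeR or DESeq2. Means over all 4 libraries were 11.7 ± 4.12 CPM in PS19;Lsd1Δ/+ and 11.9 ± 6.54 CPM in PS19 for Fcgr2b, and 15.0 ± 1.99 and 15.0 ± 7.26 CPM for Lyn (SD, n = 4 each).

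Without the transgene, no member was called between Lsd1Δ/+ and WT hippocampus, on only 2 Lsd1Δ/+ libraries. These 2 libraries read 3.01 and 4.25 CPM for Fcgr1, 2.92 and 1.71 for Fcgr2b, 5.07 and 3.81 for Fcgr3, and 5.12 and 2.37 for Fcer1g. For Lyn they read 6.06 and 6.46 CPM, for Syk 5.93 and 4.80, for Fcgr4 0.129 and 0.0552, and for Fgr 0.0860 and 0 CPM. All 8 genes overlapped WT, while 4.97% of all genes lay higher and 5.76% lower without overlap, with log2 differences of -0.60 for Fcgr3 to 1.16 for Fcgr4, the last on 4 counts in Lsd1Δ/+ and 3 in WT (pooled ratio 2.56, exact 95% interval 0.434 to 17.5). Neither edgeR nor DESeq2 called a member and none had an unadjusted p under 0.05, with 0% and 0.00497% of all genes called and 1.28% at an unadjusted p under 0.05. The 95% intervals of the log2 difference were wide: -3.82 to 3.15 for Fgr, -1.78 to 0.58 for Fcgr3 and -0.875 to 0.744 for Lyn. The values therefore do not show that Lsd1Δ/+ was near WT. The interaction of transgene and Lsd1 dose ran from -1.38 for Fcgr4 (SE 1.397) to 0.43 for Fcgr3 (SE 0.69), with no call by edgeR or DESeq2 (0% and 0.00994% of all genes) and no unadjusted p under 0.05 (0.835% of all genes).

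**Figure D2:**
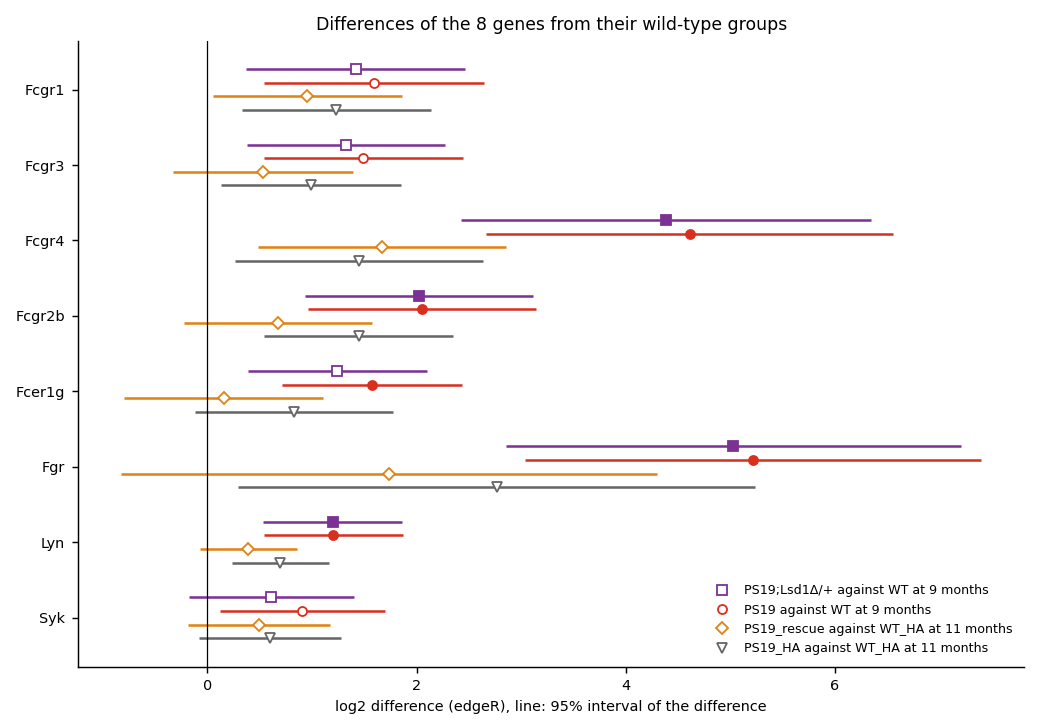
Log2 difference from the wild-type group of the same cohort by edgeR (horizontal axis) for each of the 8 genes (rows), with lines for the 95% interval and a filled symbol where DESeq2's adjusted p was under 0.05. Fgr and Fcgr4 lie farthest right in the 9-month comparisons, at 5.22 and 4.61 in PS19, and no symbol of the 11-month comparisons is filled.

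In the 11-month cohort, all 8 genes again had higher fitted levels in PS19_HA than in WT_HA hippocampus, by smaller amounts. Log2 differences ran from 0.60 for Syk to 2.76 for Fgr with a median of 1.11, against a median of 0.00 over 19290 genes, of which 50.5% were above 0. Neither edgeR (adjusted p = 0.454 to 0.629) nor DESeq2 (adjusted p = 0.0666 to 0.608) called a member, where they called 0.0156% of genes and, in that direction, 0.544%. Before adjustment 6 of the 8 had p under 0.05, against 5.91% of all genes in that direction. Groups did not overlap for 3 (Fcgr2b, Fcgr4 and Lyn), against 7.78% of all genes.

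Among the activating receptors, Fcgr1 read 2.95, 4.85 and 7.91 CPM in PS19_HA, against 3.16, 1.36 and 2.11 CPM in WT_HA. Fcgr3 read 7.26, 14.8 and 26.0 CPM in PS19_HA, against 7.81, 9.42 and 7.04 CPM in WT_HA. In both, PS19_HA replicate 1 lay among the WT_HA libraries, and the log2 differences were 1.23 (SE 0.40) for Fcgr1 and 0.99 (SE 0.38) for Fcgr3. Fcgr4 read 0.528, 0.515 and 0.791 CPM in PS19_HA, against 0.291, 0.118 and 0.235 CPM in WT_HA, with no overlap. Its pooled ratio was 2.74 on 44 and 15 counts (exact 95% interval 1.495 to 5.30, counting error only).

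The inhibitory Fcgr2b had the lowest unadjusted p of the 8 in this cohort. It read 4.62, 9.75 and 15.9 CPM in PS19_HA, against 3.37, 4.5 and 3.28 CPM in WT_HA. All PS19_HA libraries were higher, replicate 1 by little, and the log2 difference was 1.44 (SE 0.40, 95% interval 0.54 to 2.35). It missed the threshold in edgeR (adjusted p = 0.454) and in DESeq2 (0.0666). DESeq2 called Fcgr2b when the replicate number was a block (adjusted p = 0.0336), and no other member, against 1.38% of all genes. Whether the replicate numbers pair these libraries is uncertain. Fcer1g read 3.65, 7.17 and 11.98 CPM in PS19_HA, against 3.70, 5.86 and 3.36 CPM in WT_HA (log2 difference 0.83, SE 0.42).

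Of the kinases, Fgr read 0.0880, 1.03 and 3.12 CPM in PS19_HA, against 0.0416, 0.118 and 0.430 CPM in WT_HA. Its groups overlapped, and the pooled ratio was 7.0 on 105 and 14 counts (exact 95% interval 3.99 to 13.2, counting error only). It depended on single libraries: the fitted log2 difference was 1.42 without PS19_HA replicate 3 and 4.16 without WT_HA replicate 3. These are the libraries of low Xist in their groups, and the part of sex in the difference was not tested. Lyn read 9.11, 12.3 and 15.6 CPM in PS19_HA, against 8.69, 7.05 and 7.04 CPM in WT_HA, and did not overlap (log2 difference 0.70, SE 0.21). Syk read 3.83, 6.57 and 7.99 CPM in PS19_HA, against 5.28, 2.72 and 4.10 CPM in WT_HA. Without PS19_HA replicate 1, the library nearest to wild type, DESeq2 called 5 of the 8: Fcgr1, Fcgr2b, Fcgr3, Fgr and Lyn, at adjusted p = 3.36e-05 to 0.0277. That fit called 341 genes in all (1.73%, against 121 with all libraries), and the 5 fits that each left out another library called 0 of the 8, with no adjusted p for 2 of them in the fit without PS19_HA replicate 3.

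With LSD1 virus, most of the genes stood between the control-virus groups. In PS19_rescue, Fcgr2b read 6.47, 4.498 and 6.81 CPM, Fcgr3 12.5, 9.996 and 12.5, Fcgr1 4.88, 4.83 and 3.31, and Fcgr4 1.18, 0.708 and 0.335 CPM. Fcer1g read 4.59, 3.58 and 6.14 CPM, Fgr 0.471, 0.417 and 1.15, Lyn 9.35, 9.54 and 11.0, and Syk 6.00, 5.83 and 5.32 CPM. Each gene overlapped the PS19_HA values given above, and for all but Fcgr4 the PS19_rescue libraries were closer together and their mean lay between those of PS19_HA and WT_HA. Against PS19_HA, 7 of the 8 fitted log2 differences were below 0, from -1.03 for Fgr (SE 0.95) to -0.10 for Syk (SE 0.30), and Fcgr4 was at 0.22 (SE 0.47). Their median was -0.38, against -0.01 over all genes, of which 48.2% were above 0, and 3.41% of all genes lay higher and 3.74% lower without overlap. Fgr rests on 49 counts in PS19_rescue and 105 in PS19_HA, a pooled ratio of 0.490 (exact 95% interval 0.342 to 0.694, counting error only). Neither edgeR nor DESeq2 called a member and none had an unadjusted p under 0.05, with 0% and 0.0156% of all genes called and 1.81% at an unadjusted p under 0.05. The 95% interval of the difference was -1.65 to 0.11 for Fcgr2b and -0.77 to 0.15 for Lyn.

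Against WT_HA, PS19_rescue had fitted log2 differences of 0.15 for Fcer1g to 1.73 for Fgr, with a median of 0.60 (50.3% of all genes were above 0) and no call by edgeR (adjusted p = 0.864 to 0.953, 0.0207% of all genes called) or DESeq2 (0.0933% of all genes called). Fcgr1 and Fcgr4 had unadjusted p under 0.05, as did 2.33% of all genes in that direction. Groups did not overlap for Fcgr1, Fcgr3, Fcgr4, Lyn and Syk, against 5.78% of all genes. The 3 comparisons of this cohort share libraries, so their values are not independent of each other.

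The tau effect of the 11-month cohort minus that of the 9-month cohort was below 0 on the log2 scale for all 8 genes, where 53.9% of all genes were above 0. It was -3.18 for Fcgr4 (SE 1.14, 95% interval -5.55 to -0.80) and -2.45 for Fgr (SE 1.603), and between -0.75 and -0.30 for the others. Fcgr4 alone had an unadjusted p under 0.05 in edgeR, as did 0.569% of all genes, and no member passed adjustment in edgeR or DESeq2 (adjusted p of 1.00, with 0% of all genes called by either). Fcgr4 in the wild-type groups averaged 0.215 ± 0.0879 CPM in WT_HA (n = 3) and 0.0465 ± 0.0401 CPM in WT (n = 4). Age, virus injection and the mix of sexes by Xist all differ between the cohorts and cannot be told apart.

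Activating receptors were next set against Fcgr2b within each library, as a ratio that does not depend on how libraries are scaled. Fcgr3 over Fcgr2b had lower means in tau-transgenic hippocampus: the log2 ratios were 0.11, 0.40, 0.76 and 0.64 in PS19;Lsd1Δ/+ and 0.35, 1.34, 0.49 and 0.84 in PS19, against 0.85, 1.84, 1.04 and 1.34 in WT. PS19;Lsd1Δ/+ did not overlap WT (difference -0.79, exact two-sided permutation p = 0.0286, the smallest that 4 against 4 libraries can give, adjusted 0.171 over 18 tests). PS19 overlapped WT (difference -0.51, exact permutation p = 0.114, adjusted 0.343). Between libraries of the same replicate number, the ratio was lower in PS19 than in WT in 4 of 4 pairs, with differences of -0.50, -0.50, -0.55 and -0.51 (exact two-sided test over the signs of the pairs, p = 0.125, the smallest that 4 pairs can give). It was also lower in PS19;Lsd1Δ/+ than in WT in 4 of 4 pairs (-0.74, -1.44, -0.28 and -0.70, p = 0.125 by the same exact test). At 11 months the log2 ratios were 0.95, 1.15 and 0.88 in PS19_rescue and 0.65, 0.60 and 0.71 in PS19_HA, against 1.21, 1.07 and 1.10 in WT_HA. PS19_HA lay below both other groups without overlap (difference from WT_HA -0.47, and that of PS19_rescue from PS19_HA 0.34), each at an exact permutation p = 0.1, the smallest that 3 against 3 can give (adjusted 0.343). Counts of Fcgr2b and Fcgr3 could include each other's reads from the stretches they share.

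Fcgr4 over Fcgr2b was higher in both 9-month transgenic groups. The log2 ratio averaged -3.60 ± 0.35 in PS19;Lsd1Δ/+ and -3.89 ± 0.82 in PS19, against -5.91 ± 0.28 in WT (SD, n = 4 each), with no overlap, and both differences (2.32 and 2.02) had an exact permutation p = 0.0286 (adjusted 0.171). The WT values rest on 3 counts of Fcgr4, with 0.5 count in place of the 0 of WT replicate 2, and with 0.5 CPM added to both genes in place of that the differences turned to -0.46 and -0.39. At 11 months Fcgr4 over Fcgr2b differed by 0.30 between PS19_HA and WT_HA (exact permutation p = 0.8). Fcgr1 over Fcgr2b differed from the wild-type groups by -0.41 in PS19;Lsd1Δ/+, -0.30 in PS19 and -0.07 in PS19_HA, less than the spread between replicates (exact permutation p = 0.629 to 0.9). As a description without a test, the summed CPM of the activating receptors over that of Fcgr2b ran from 2.01 to 2.41 in PS19;Lsd1Δ/+ and 1.76 to 4.24 in PS19, against 2.29 to 6.64 in WT. At 11 months it ran from 2.38 to 3.45 in PS19_rescue and 2.07 to 2.32 in PS19_HA, against 2.42 to 3.35 in WT_HA.

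**Figure D3:**
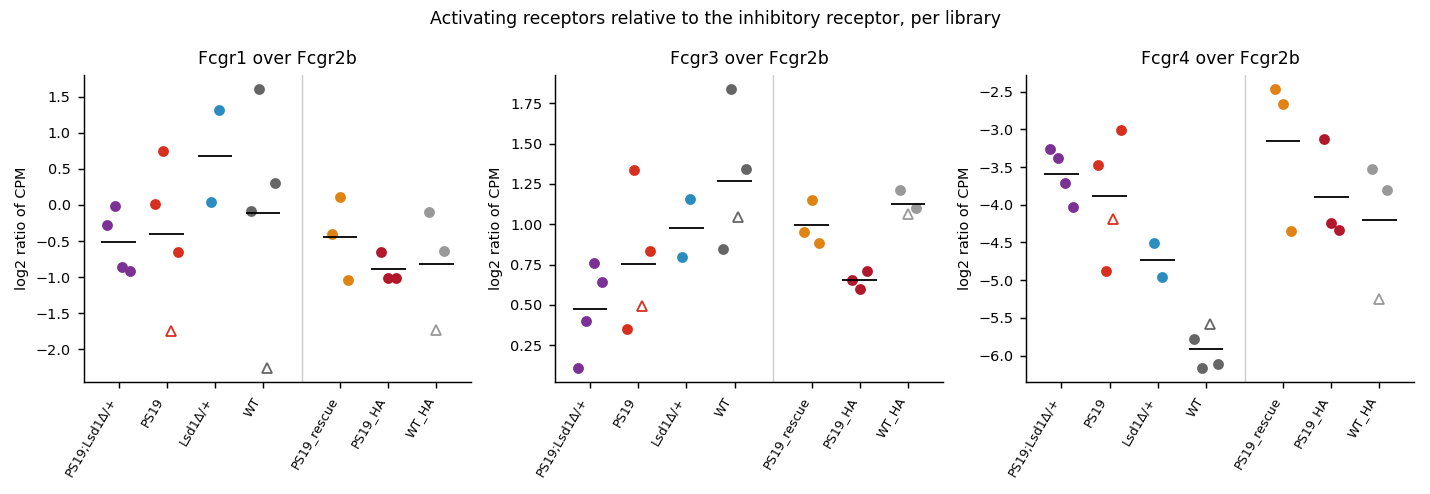
Log2 ratio of the CPM of Fcgr1, Fcgr3 and Fcgr4 over that of Fcgr2b (vertical axes) in every library of the 7 groups, with a bar at the group mean and open triangles for libraries with over 10% mitochondrial counts. In the panel of Fcgr3, the 3 PS19_HA libraries lie at 0.60 to 0.71, below the WT_HA libraries at 1.07 to 1.21.

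Markers of microglia, which carry these receptors, were also higher in most of the transgenic libraries. The summed CPM of 12 homeostatic microglia markers, such as Tmem119, P2ry12 and Csf1r, was 582.1, 362.2, 670.0 and 613.7 in PS19;Lsd1Δ/+ and 799.5, 383.4, 382.0 and 827.5 in PS19, against 348.8, 327.8, 347.4 and 358.8 in WT. At 11 months it was 374.8, 386.4 and 394.7 in PS19_rescue and 345.1, 494.9 and 590.9 in PS19_HA, against 354.3, 321.1 and 308.1 in WT_HA. PS19 replicate 2 and PS19_HA replicate 1, the lowest of their groups in Fcgr2b and Fcgr3, were also low in these markers. So was PS19 replicate 3, the lowest PS19 library in Fcgr1 (3.37 CPM) and Syk (4.74 CPM), which was not low in Fcgr2b. In PS19 against WT 11 of the 12 were above 0, where 46.5% of all genes were. Their median log2 difference was 0.68, with no call by edgeR or DESeq2. In bulk RNA, more cells of a type and more RNA per cell cannot be told apart. The part of the microglia markers in the differences of the 8 genes was not tested.

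As a share of that summed microglia level, the members differed from each other. Fcgr2b stood at 2.06% ± 0.394 of it in PS19;Lsd1Δ/+ and 1.96% ± 0.888 in PS19, against 0.837% ± 0.372 in WT (SD, n = 4 each). Fcgr4 stood at 0.170% ± 0.0279 and 0.158% ± 0.102, against 0.0133% ± 0.0116 in WT, and Fgr at 0.403% ± 0.11 and 0.341% ± 0.292, against 0.0152% ± 0.0142. Syk was at 1.21% ± 0.250 and 1.39% ± 0.349, against 1.23% ± 0.553 in WT, and Lyn at 2.89% ± 1.20 and 2.46% ± 0.431, against 1.89% ± 0.108. Relative to the microglia markers, Syk thus stayed within the WT spread while the means of Fcgr4 and Fgr were over 10 times those of WT. These shares are a description.

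**Figure D4:**
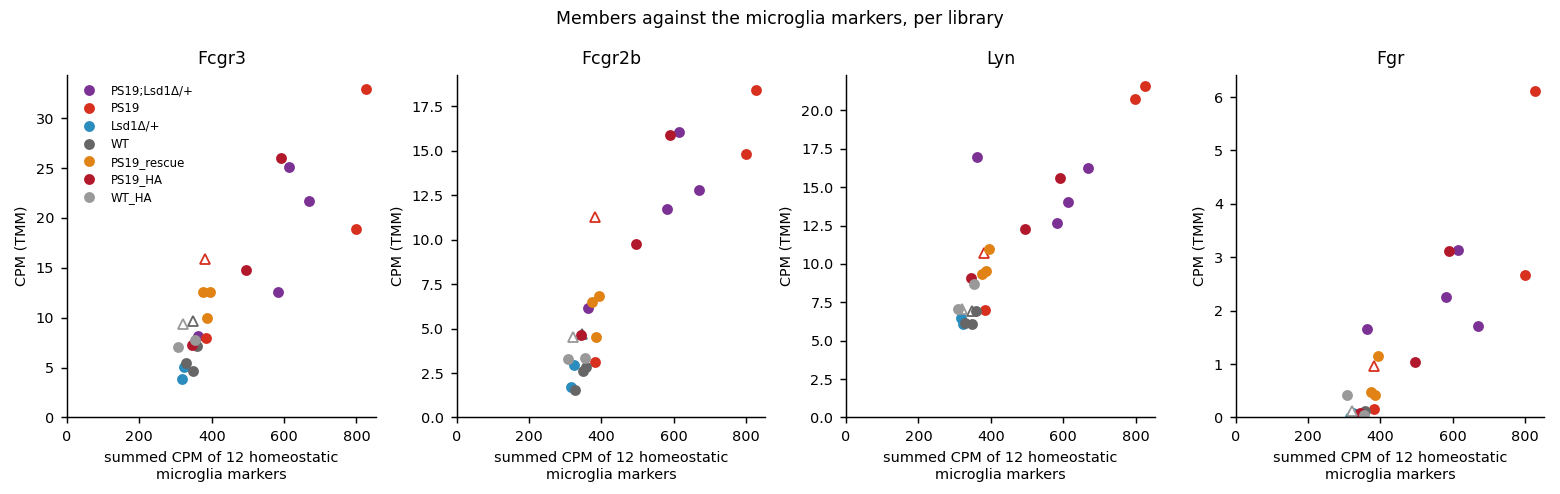
CPM of Fcgr3, Fcgr2b, Lyn and Fgr (vertical axes) against the summed CPM of the 12 homeostatic microglia markers (horizontal axes), 1 symbol per library, coloured by group, with open triangles for libraries with over 10% mitochondrial counts. PS19 replicates 1 and 4, with marker sums of 799.5 and 827.5 CPM, lie farthest right, and the WT libraries lie at marker sums of 327.8 to 358.8 CPM with Fgr at 0.123 CPM or less.

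Markers of other cells that use Fc receptors were also looked up. Those of border macrophages (7 genes, such as Mrc1 and Cd163) summed to 6.87 to 13.9 CPM in PS19;Lsd1Δ/+ and 5.42 to 25.7 CPM in PS19, against 6.31 to 9.88 CPM in WT, and at 11 months to 5.90 to 16.7 CPM in PS19_HA, against 3.66 to 15.6 CPM in WT_HA. In PS19 against WT 6 of the 7 were tested and all 6 stood above 0 (median log2 difference 0.97), with no call by edgeR or DESeq2. Of all genes, 46.5% stood above 0 in that comparison. In PS19_HA against WT_HA only 2 of the 6 tested stood above 0 (median -0.12), as did 50.5% of all genes, again with no call. Neutrophil markers (7 genes) summed to 0.220 to 0.824 CPM in PS19, against 0.294 to 1.32 CPM in WT, with 3 of the 7 at 0 in every PS19 library. NK cell markers (5 genes) summed to 0.0531 to 0.572 CPM in PS19, against 0.0409 to 0.489 CPM in WT. Markers of B cells and plasma cells (6 genes) summed to 0.691 to 1.46 CPM in PS19, against 0.696 to 1.48 CPM in WT, and to 1.36 to 4.04 CPM in PS19_HA, against 1.21 to 1.45 CPM in WT_HA. The lists for monocytes (103.2 to 153.2 CPM in PS19, 87.1 to 122.0 in WT) and mast cells (68.8 to 127.1 CPM in PS19, 76.2 to 116.7 in WT) rest mostly on genes that other brain cells also use, Kit in the second. Of the 7 monocyte markers 5 were tested in PS19 against WT, and all 5 stood above 0 (median 0.49) with no call by edgeR or DESeq2. In PS19_HA against WT_HA 4 were tested and 2 stood above 0 (median 0.43), with no call. The part of the border macrophages and monocytes in the differences was not tested.

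The ligands of these receptors are immunoglobulins, made by plasma cells. At 9 months the 10 immunoglobulin genes looked up were low, with 5 passing the filter on low counts. In PS19 against WT 4 of the 5 were above 0, as were 46.5% of all genes, and none was called by edgeR or DESeq2. Their summed level was 7.39 to 33.0 CPM in PS19, against 9.00 to 19.7 CPM in WT. At 11 months it was 27.6 to 209.0 CPM in PS19_rescue and 93.2 to 413.4 CPM in PS19_HA, against 21.7 to 186.5 CPM in WT_HA. Of the 10, 9 passed the filter and all 9 were above 0 in PS19_HA against WT_HA, with a median log2 difference of 1.52, and DESeq2 called Ighg1. Of all genes, 50.5% were above 0 in that comparison and DESeq2 called 0.544% as higher.

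Ighg1, the constant region of IgG1, read 0.0372 to 0.250 CPM in PS19_rescue and 0.440 to 4.59 CPM in PS19_HA, against 0.0416 to 0.178 CPM in WT_HA. All 3 PS19_HA libraries lay above the other 6. Its log2 difference was 4.44 (SE 0.94) for PS19_HA against WT_HA, with adjusted p = 0.00512 by DESeq2 and 0.454 by edgeR, and -4.49 (SE 0.94) for PS19_rescue against PS19_HA, with adjusted p = 0.0279 by DESeq2 and 1.00 by edgeR. Both comparisons use the same PS19_HA libraries. Ighg2c, the constant region of IgG2c, ran from 5.12 to 72.8 CPM in PS19_rescue and 25.3 to 103.7 CPM in PS19_HA, against 3.79 to 27.2 CPM in WT_HA, and was not called. Constant-region genes resemble each other, so reads may have been split between them.

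Genes downstream of the receptors were counted over those that passed the filter on low counts, which a gene can pass through the libraries where it is high. Over all genes in PS19 against WT, 46.5% stood above 0, with a median of -0.02, and DESeq2 called 0.929% as higher. Of 18 adaptors and effectors downstream of Syk, all 18 passed the filter and stood above 0 in that comparison (median log2 difference 0.97). DESeq2 called 1 of them, the membrane adaptor Lat2 (1.58, adjusted p = 0.0383). Of 5 subunits of the phagocyte oxidase, which makes superoxide, all 5 were above 0 (median 1.70), and DESeq2 calls included Cybb and Ncf4. The catalytic subunit Cybb averaged 7.90 ± 6.83 CPM in PS19, against 0.570 ± 0.0935 CPM in WT (log2 difference 3.78, DESeq2 adjusted p = 1.03e-05), and Ncf4, a cytosolic subunit, differed by 2.03 (0.0240). For these and the other lists edgeR called no gene.

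Of 14 other ITAM adaptors and partner receptors, 6 passed the filter and 8 were not tested. In PS19 against WT DESeq2 called 3 of the 6 as higher, against 0.929% of all genes. The list is mixed in kind. Clec7a, a receptor for fungal glucans that signals through Syk by a motif of its own, averaged 18.1 ± 19.2 CPM in PS19, against 0.334 ± 0.151 CPM in WT (log2 difference 5.79, DESeq2 adjusted p = 3.19e-08). Tyrobp, the chain that serves Trem2 as Fcer1g serves the Fc receptors, averaged 24.9 ± 19.1 CPM in PS19, against 6.01 ± 0.803 CPM in WT (2.05, 0.00431). The third was Lilrb4a (3.51, 0.000458), an inhibitory receptor. All 3 were also called in PS19;Lsd1Δ/+ against WT by DESeq2, as was Cybb (3.13, adjusted p = 0.00140). There DESeq2 called 0.527% of all genes as higher.

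On the inhibitory side, 7 of 8 phosphatases and adaptors stood above 0 in PS19 against WT (median log2 difference 0.64), where 46.5% of all genes did. DESeq2, which called 0.929% of all genes as higher, called Ptpn6, a phosphatase that binds inhibitory motifs. It averaged 11.3 ± 6.75 CPM in PS19, against 3.44 ± 1.00 CPM in WT (1.70, adjusted p = 0.0163), and Inpp5d, the partner of Fcgr2b, stood at 1.31 and was not called. Among other Src-family kinases and their regulators, 6 of the 9 that passed the filter were above 0 with a median of 0.06, and DESeq2 called Ptprc, the phosphatase CD45 of white blood cells (2.22, adjusted p = 0.0104). The kinases Src, Fyn and Yes1 of that list stood at 0.01, -0.21 and -0.05. Of 10 other Fc-binding receptors 4 passed the filter, 3 of them above 0, and DESeq2 called Trim21, a cytosolic antibody receptor, at 6.06 ± 2.50 CPM in PS19, against 2.25 ± 0.340 CPM in WT (1.43, adjusted p = 0.00389).

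In PS19_HA against WT_HA the same lists gave medians of 0.64 for the 18 genes downstream of Syk, 1.33 for the 5 oxidase genes and 0.58 for the 8 inhibitory genes, against 0.00 over all genes. DESeq2 called Clec7a (4.71, adjusted p = 0.00520), Tyrobp (1.59, 0.0161), Trem2 (1.71, 0.0280), Cybb (2.69, 0.0204), the actin regulator Was (1.71, 0.0204) and the phosphatase Inppl1 (0.72, 0.0452). Over all genes it called 0.544% as higher. In PS19_rescue against PS19_HA the medians were -0.36, -0.51 and -0.03 in the same order of lists, and neither tool called a gene of these lists.

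**Figure D5:**
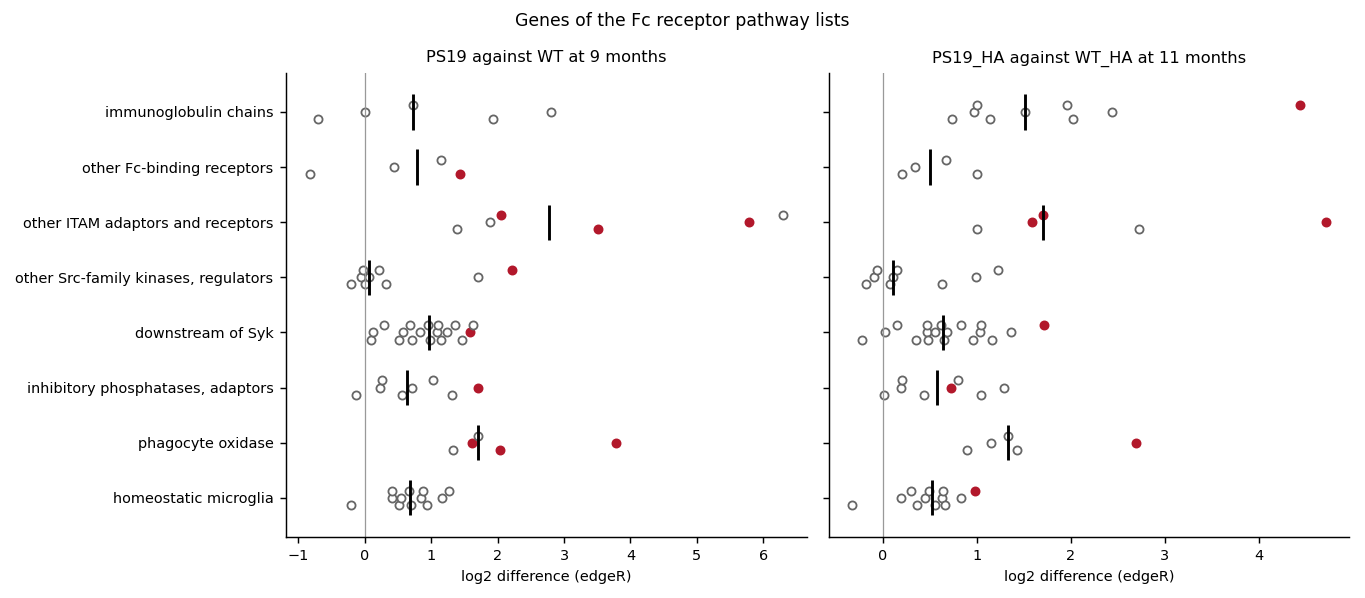
Log2 difference by edgeR (horizontal axes) of each tested gene of the Fc receptor pathway lists (rows), for the comparisons named above the panels. Filled symbols are genes that DESeq2 called, bars are medians, and the vertical scatter within a row only separates points. In PS19 against WT, Clec7a at 5.79 is the farthest right of the called genes and Cd300lb at 6.30, not called, lies beyond it.

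Across the 23 libraries, with each cohort's mean taken off, the gene most like each member in log2 CPM among 15589 protein-coding genes was in most cases another gene of microglia or white blood cells. Fcgr1 was most like C1qa (Pearson r = 0.954), Fcgr3 most like Ptprc (0.970), and Fcgr4 most like Irgm1 (0.947). Fcgr2b and Fcer1g were both most like Ggta1 (0.978 and 0.947). Among the kinases, Fgr was most like Capg (0.970), Lyn most like Cd22 (0.968) and Syk most like Irf5 (0.933). All points share the libraries and the group differences described above, so these values are a description without a test.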

How the data were processed

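Poly(A) RNA of 23 hippocampus libraries was sequenced. The authors deposited 1 file of raw read counts per gene for each library. Per the submitters' processing notes, FastQC 0.11.7, Trimmomatic 0.36.5, HISAT2 2.1.0, featureCounts 1.6.0.6 and DESeq2 2.11.40.2 were used with build GRCm38. Strand setting, annotation release and rule for multi-mapping reads were not given in the sources used here. Identifiers were given symbols from GENCODE M21, which named 54165 of 54232.

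Counts were scaled by TMM. Genes passing filterByExpr (minimum count 10, minimum total 15) entered edgeR 4.0.16 (quasi-likelihood F test, robust, with limma 3.58.1 and R 4.3.3) in 1 fit per cohort (20122 genes at 9 months, 19290 at 11 months) and 1 fit over all libraries for the difference between cohorts (20931 genes). P-values were adjusted over all genes tested by Benjamini-Hochberg with a threshold of 0.05. Intervals of log2 differences are 95% intervals from the SE and edgeR's degrees of freedom. DESeq2 1.42.0 was the alternative tool. Other alternatives were DESeq2 size factors, no filter on low counts, only the groups compared, the replicate number as a block, leaving out each library, leaving out libraries with over 10% mitochondrial counts, and replicates 1 and 2 or 3 and 4 alone. Pairs of these with DESeq2, and ratios compared within replicate numbers, were added after seeing the data. Ratios to Fcgr2b used exact two-sided permutation tests over every split of the libraries, with 0.5 count in place of 0. SciPy 1.17.1 was used for the intervals. The scripts were tested on simulated data. Intervals of count ratios cover counting error only.

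Replicate numbers are shared between groups, and the labels do not say what they mark. Same-numbered libraries deviated together (correlations 0.497 to 0.821 for PS19 with WT, 0.313 to 0.538 for PS19;Lsd1Δ/+ with WT, 0.298 to 0.479 for PS19;Lsd1Δ/+ with PS19, 0.113 to 0.299 for PS19_HA with WT_HA and 0.122 to 0.467 for PS19_rescue with WT_HA), so the numbers were taken to pair these samples. They did not for Lsd1Δ/+ with WT (0.028 to 0.065) and PS19_rescue with PS19_HA (0.073 to 0.241). That split was not clear-cut, because the values of PS19_rescue with PS19_HA overlapped those of PS19_HA with WT_HA. Xist differed between same-numbered PS19_rescue and WT_HA libraries, at 62.4 against 1270 CPM in replicate 1 and 1043 against 40.8 in replicate 3. In replicate 2 it was 1040 against 1837 CPM. Pairing of the PS19_HA, PS19_rescue and WT_HA libraries by number is thus uncertain. No libraries of a group agreed within sampling noise (smallest chi-square per gene 11.6).

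The 8 genes and the lists were chosen with earlier results of these data known. Named from each list were up to 3 called genes with the largest difference in PS19 against WT. Src, Fyn, Yes1, Inpp5d, Cd300lb and the genes called only at 11 months were named after their values were seen. Some genes of the lists are not reported here.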

Additional observations from a re-analysis of the deposited data

Results flagged for a closer look

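Fcer1g in WT replicate 3 stood apart from the other libraries of its group. It read 5.28 CPM, against 3.48 to 3.77 CPM in the other 3 WT libraries, a gap of 0.838 of the group's range, where 0.829 is the 95% critical value for 4 samples. Of 33 groups of values checked this was the 1 found, and chance gives about 1 in 20. The same library had 33.9% mitochondrial counts and the highest Fcgr3 and Fcgr2b and the lowest Fcgr1 and Syk of the WT group, and the part of this in the value was not tested.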

How the results depend on the processing

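In the 3 comparisons of a transgenic group with its wild-type group that had control virus or none, none of the 8 genes changed direction under any alternative run. Over all 9 comparisons, 1139 alternative values of 72 differences gave 1042 with the same direction and side of the threshold, 31 that passed only under the alternative and 66 of opposite direction, the last all outside those 3 comparisons. Calls did depend on the fit. For PS19 against WT, edgeR called 0 of the 8 genes and DESeq2 5. DESeq2 called 0 of the 6 genes tested when fitted to these groups alone (Fcgr4 and Fgr did not pass the filter there), 0 within replicates 1 and 2 (where Fcgr4 had no adjusted p) and 2 within replicates 3 and 4, and leaving out 1 library gave 0 to 5 by edgeR and 2 to 7 by DESeq2. For PS19;Lsd1Δ/+ against WT, edgeR called 0 (2 when fitted to these groups alone) and DESeq2 4 (7 with the replicate block, 0 within replicates 1 and 2, again without an adjusted p for Fcgr4, 2 within replicates 3 and 4, and 1 to 3 leaving out 1 library). For PS19_HA against WT_HA DESeq2 called 0 (1 with the replicate block, 0 to 5 leaving out 1 library). The cause of these shifts was not tested. Over all genes, DESeq2 called 191 for PS19 against WT (edgeR 1), 110 for PS19;Lsd1Δ/+ against WT (edgeR 1) and 121 for PS19_HA against WT_HA (edgeR 3), and with the block 365, 872 and 266. Leaving out 1 library gave 1 to 146 genes by edgeR and 66 to 338 by DESeq2 for PS19 against WT, and 16 to 341 by DESeq2 for PS19_HA against WT_HA. Where numbers were not taken to pair the samples, the block left the count of members called at 0.

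Small differences turned round. For PS19;Lsd1Δ/+ against PS19, the replicate block (edgeR, then DESeq2) gave 0.086 and 0.082 for Fcgr2b, 0.12 and 0.20 for Fcgr4, 0.41 and 0.52 for Fgr, and 0.062 and 0.0585 for Lyn. Within replicates 1 and 2 Fcgr4 was at 0.26, Fgr at 0.42 and Lyn at 0.065, within replicates 3 and 4 Fcgr1 was at 0.030 and Syk at 0.083, and with no filter on low counts Lyn was at 0.0017. For Lsd1Δ/+ against WT, the block gave 0.15 and 0.14 for Fcgr2b, 0.14 and 0.041 for Fgr, and 0.0155 and 0.0008 for Lyn, and without the libraries of high mitochondrial share Fcgr2b was at 0.034 and Fcer1g at 0.078. For the interaction, the block gave -0.066 and -0.054 for Fcgr2b and -0.038 and -0.028 for Fcgr3, and without those libraries Fcgr2b was at -0.078 and Lyn at -0.11. Leaving out 1 library at a time also turned some differences round, with log2 values over edgeR and DESeq2. In PS19;Lsd1Δ/+ against PS19 the range was Fcgr1 -0.46 to 0.23, Fcgr3 -0.42 to 0.21, Fcgr4 -0.60 to 0.40, Fcgr2b -0.35 to 0.23, Fgr -0.58 to 0.73 and Lyn -0.24 to 0.22. In Lsd1Δ/+ against WT the range was Fcgr2b -0.74 to 0.027, Fcer1g -0.75 to 0.35 and Fgr -3.41 to 0.46. In the interaction the range was Fcgr2b -0.057 to 0.71, Fcer1g -0.68 to 0.42, Fgr -0.65 to 3.22 and Lyn -0.18 to 0.27. In PS19_rescue against PS19_HA the range was Fcgr1 -0.56 to 0.15, Fcgr3 -0.80 to 0.089, Fcgr4 -0.24 to 0.59, Fgr -1.69 to 0.31 and Syk -0.35 to 0.14. In PS19_rescue against WT_HA the range was Fcer1g -0.084 to 0.44. In the difference between the cohorts the range was Fcgr1 -0.78 to 0.020. For PS19 against WT, the B cell factor Pax5 was at -0.0012 with DESeq2 size factors in edgeR, -0.23 within replicates 1 and 2 and -0.23 to 0.34 leaving out 1 library, and Igkc ranged over -0.57 to 3.27.

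Of the ratios, those of Fcgr3 over Fcgr2b kept their direction under every alternative run. With replicate numbers as pairs no ratio passed an exact test over signs, whose smallest p is 0.125 for 4 pairs and 0.25 for 3. With 0.5 CPM added, Fcgr4 over Fcgr2b differed by -0.39 in PS19 against WT, -0.46 in PS19;Lsd1Δ/+ against WT, -0.070 in PS19;Lsd1Δ/+ against PS19 and -0.55 in PS19_HA against WT_HA. The added value is large beside Fcgr4 itself. Without the libraries of high mitochondrial share, PS19_HA against WT_HA was at -0.23 for Fcgr4 over Fcgr2b and PS19_rescue against WT_HA at -0.083 for Fcgr1 over Fcgr2b. Leaving out 1 library, Fcgr1 over Fcgr2b ranged from -1.02 to 0.27 in PS19 against WT, -1.13 to 0.17 in PS19;Lsd1Δ/+ against WT, -0.55 to 0.28 in PS19;Lsd1Δ/+ against PS19, -0.52 to 0.29 in PS19_HA against WT_HA and -0.083 to 0.73 in PS19_rescue against WT_HA. Fcgr4 over Fcgr2b ranged from -0.038 to 0.59 in PS19;Lsd1Δ/+ against PS19 and -0.23 to 0.63 in PS19_HA against WT_HA. Depth limits Fcgr4 and Fgr most, with 3 and 5 counts over the 4 WT libraries.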
